A study of Mus musculus with 19 samples.

Results

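The 4 genes described here, Lcn2, Agt, Serpina3n and Saa2, encode acute-phase proteins, and they are 4 of the 13067 genes with an RPKM (read density for the length of the gene, per M, that is mega, reads of the library) in mouse gastrocnemius muscle. They were chosen by symbol and selected on their RPKM in tumour-bearing and healthy muscle, which was already known, so their values against healthy muscle are a description and carry no test. RNA came from 5 C26 rolipram, 7 C26 vehicle and 7 healthy control muscles, with 1 library each. C26 cells derive from a colon adenocarcinoma of the mouse, and mice that carry them lose muscle, and rolipram inhibits phosphodiesterase 4, the enzyme that breaks down cyclic AMP. In both C26 groups, male Balb/c mice carried cells placed under the skin of the flank at 2 months of age. From day 4 they were injected into the peritoneum with 3 mg/kg rolipram in the C26 rolipram group, or with the ethanol and saline vehicle in the C26 vehicle group. Control mice are labelled healthy and without tumour, and their strain, sex, age and injections are not stated separately. The labels give no separate statement of animals per sample, so the p-values reflect how much these samples vary, which may be technical.

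Acute-phase proteins are secreted in quantity during infection, injury and cancer, mainly by the liver, after interleukin 6 acting through STAT3, interleukin 1 and tumour necrosis factor acting through NF-kB, and glucocorticoid hormones switch on their genes. C/EBP beta and delta act on many of the same promoters. Lcn2 encodes lipocalin 2, which binds bacterial siderophores and so withholds iron from microbes. Agt encodes angiotensinogen, the protein that renin cleaves to start the production of angiotensin. Serpina3n encodes a secreted inhibitor of serine proteases, and angiotensinogen belongs to the same serpin superfamily without being an inhibitor. Saa2 encodes a serum amyloid A, a small apolipoprotein carried on high-density lipoprotein. In the GRCm38 annotation the protein-coding genes span chr2:32384633-32388252 on the minus strand for Lcn2, chr8:124556534-124569706 on the minus strand for Agt, chr12:104406729-104414329 on the plus strand for Serpina3n and chr7:46751790-46754313 on the plus strand for Saa2. None of their exons overlaps an exon of another gene.

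The promoter stretches are shown because 3 of the 4 genes differed between the tumour groups, in both directions, so that the response elements in front of each can be seen. Each is the 250 bases before the RefSeq start of transcription (GRCm38.p6), read 5′ to 3′ on the gene's own strand. The RefSeq starts of Lcn2 and Saa2 lie inside the gene spans given above. The Lcn2 window therefore falls within its span, and the Saa2 window reaches into its span. Capitals mark every match, on either strand, to 6 elements.
Lcn2, chr2:32387740-32387989, minus strand: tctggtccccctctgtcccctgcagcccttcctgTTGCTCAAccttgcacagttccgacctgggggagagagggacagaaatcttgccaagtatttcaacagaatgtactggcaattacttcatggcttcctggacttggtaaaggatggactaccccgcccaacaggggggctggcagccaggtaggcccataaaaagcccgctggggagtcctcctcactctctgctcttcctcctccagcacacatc
Agt, chr8:124569707-124569956, minus strand: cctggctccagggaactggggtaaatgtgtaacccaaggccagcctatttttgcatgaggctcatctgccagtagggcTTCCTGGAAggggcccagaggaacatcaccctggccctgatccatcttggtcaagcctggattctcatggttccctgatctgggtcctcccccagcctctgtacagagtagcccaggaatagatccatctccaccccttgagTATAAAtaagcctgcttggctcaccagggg
Serpina3n, chr12:104406458-104406707, plus strand: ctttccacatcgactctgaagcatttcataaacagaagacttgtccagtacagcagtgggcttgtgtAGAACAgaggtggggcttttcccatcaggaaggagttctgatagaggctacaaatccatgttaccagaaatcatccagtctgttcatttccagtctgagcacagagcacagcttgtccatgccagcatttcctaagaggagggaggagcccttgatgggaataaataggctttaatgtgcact
Saa2, chr7:46751583-46751832, plus strand: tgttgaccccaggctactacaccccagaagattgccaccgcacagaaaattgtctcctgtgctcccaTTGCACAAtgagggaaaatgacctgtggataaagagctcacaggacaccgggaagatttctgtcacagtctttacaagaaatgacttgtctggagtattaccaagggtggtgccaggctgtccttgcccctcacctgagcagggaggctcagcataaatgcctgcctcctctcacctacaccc

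The elements searched were STAT (TTCNNNGAA), C/EBP (TTGCNNAA), NF-kB (GGGRNWYYCC), the glucocorticoid receptor half-site (AGAACA), the half-site of the cyclic AMP response element (TGACG) and the TATA box (TATAAA). N stands for any base, R for A or G, W for A or T and Y for C or T. No match overlapped another in these windows. Lcn2 and Saa2 each held a C/EBP match, TTGCTCAA at 216 to 209 bases and TTGCACAA at 183 to 176 bases before the start. A C/EBP match stood in 9.56% of all 32851 promoter windows of this length. Agt held a STAT match, TTCCTGGAA at 172 to 164 bases before the start, as did 7.02% of windows, and a TATA box at 30 to 25 bases, as did 12.4%. Serpina3n held 1 glucocorticoid half-site at 183 to 178 bases, as did 16.1% of windows. NF-kB (3.9% of windows) and the cyclic AMP half-site (17.8% of windows) gave no match in these 4 windows. A match is a run of letters and was not tested as a binding site. Compared in pairs, the 4 promoters were at most 53.8% identical, whereas the Saa2 window was 94.8% identical to that of its neighbour Saa1.

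Estimated depth was 17.06 to 39.69 M reads in C26 rolipram, 20.65 to 46.83 M in C26 vehicle and 18.63 to 23.18 M in control libraries. All 10 markers of muscle fibres were measured, and their summed level was 53730 to 84541 RPKM in C26 rolipram, 53889 to 84498 RPKM in C26 vehicle and 80765 to 104568 RPKM in control muscle. Of 12 markers of hepatocytes, 1 was in the table, Cyp2e1, with 3.43 to 18.9 RPKM in C26 rolipram, 1.27 to 57.4 RPKM in C26 vehicle and 5.75 to 53.3 RPKM in control muscle. Of 13 neutrophil markers, 3 were in the table, and their sum had medians of 13.2, 8.20 and 1.63 RPKM in C26 rolipram, C26 vehicle and control muscle. For macrophages all 10 markers were measured, with medians of 107, 107 and 47.0 RPKM in the same order of groups. Of 8 markers of colon epithelium, 0 had a value to analyse here. Whole muscle was sequenced, so the cell type that carried each transcript was not measured, and fewer cells of a type and less RNA per cell cannot be told apart.

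Lcn2 was the most abundant of the 4 in both tumour groups. It reached 2857, 2645, 429, 1250 and 3309 RPKM in the 5 C26 rolipram libraries. C26 vehicle libraries ran from a lowest of 132 through a median of 519 to a highest of 984 RPKM. Control libraries ran from 0.436 through 1.48 to 5.86 RPKM. Every tumour library was far above every control library, and 4 of the 5 C26 rolipram libraries were above all C26 vehicle libraries, the exception being C26 rolipram library 3. The mean was 2098 ± 1209 RPKM in C26 rolipram (SD, n = 5), 594 ± 372 RPKM in C26 vehicle (n = 7) and 1.83 ± 1.88 RPKM in control muscle (n = 7). By mean level Lcn2 thus stood at rank 21 of 13067 genes in C26 rolipram, rank 71 in C26 vehicle and rank 9081 in control muscle. The ratio of means was 1145 for C26 rolipram over control and 324 for C26 vehicle over control.

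Agt followed the same order of groups at lower levels. Its C26 rolipram libraries had 170, 171, 7.76, 54.6 and 136 RPKM. C26 vehicle libraries ran from 4.33 through a median of 9.49 to 39.1 RPKM, and control libraries from 2.13 through 2.74 to 4.32 RPKM. Again C26 rolipram library 3 alone lay within the C26 vehicle range. The lowest C26 vehicle library, library 2, had 4.33 RPKM and the highest control library, library 3, had 4.32 RPKM, so these groups touched without overlapping. Agt averaged 108 ± 73.3 RPKM in C26 rolipram, 17.0 ± 13.9 RPKM in C26 vehicle and 2.94 ± 0.771 RPKM in control muscle (SD, n = 5, 7 and 7). Mean levels were 36.7 times control in C26 rolipram and 5.77 times control in C26 vehicle.

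Serpina3n was also far above control in both tumour groups, but with the opposite order of the tumour groups by mean. It had 109, 83.6, 59.3, 77.0 and 266 RPKM in the 5 C26 rolipram libraries. C26 vehicle libraries ran from 74.1 through a median of 195 to 341 RPKM, and control libraries from 1.01 through 1.73 to 4.30 RPKM. The tumour groups overlapped, with C26 rolipram library 5 above 5 of the 7 C26 vehicle libraries and C26 vehicle library 2 below 4 of the 5 C26 rolipram libraries. Means were 119 ± 84.0 RPKM in C26 rolipram, 200 ± 94.5 RPKM in C26 vehicle and 2.01 ± 1.09 RPKM in control muscle (SD, n = 5, 7 and 7), which is 59.1 times control in C26 rolipram and 99.1 times control in C26 vehicle. About 6.7% of the 50-base words of its coding transcripts also occur in other genes of the mouse Serpina3 cluster, so reads can be split between relatives.

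Saa2 was the scarcest. It had 0.750, 0.735, 0.330, 0.824 and 1.30 RPKM in the C26 rolipram libraries, or an estimated 19, 8, 5, 10 and 25 reads. C26 vehicle libraries ran from 1.92 through a median of 4.23 to 12.4 RPKM, or from 28 to 379 reads. Control muscle had at most 0.263 RPKM, 3 reads in library 2, and 4 of the 7 control libraries held no read. All C26 vehicle libraries were above all C26 rolipram libraries, and these above all control libraries. Saa2 averaged 0.787 ± 0.344 RPKM in C26 rolipram and 5.20 ± 3.97 RPKM in C26 vehicle (SD, n = 5 and 7), and no fold over control is given because most control libraries held no read. Saa2 reached the filter of 1 RPKM in 5 libraries through C26 vehicle, with 7 libraries of that group, 1 of C26 rolipram and 0 of control. This is the group in which it was high, so its test against C26 rolipram is not independent of the filter. With Saa1 it shares 11.2% of its 50-base words, so the counts of these neighbours are not fully separate.

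**Figure D1:**
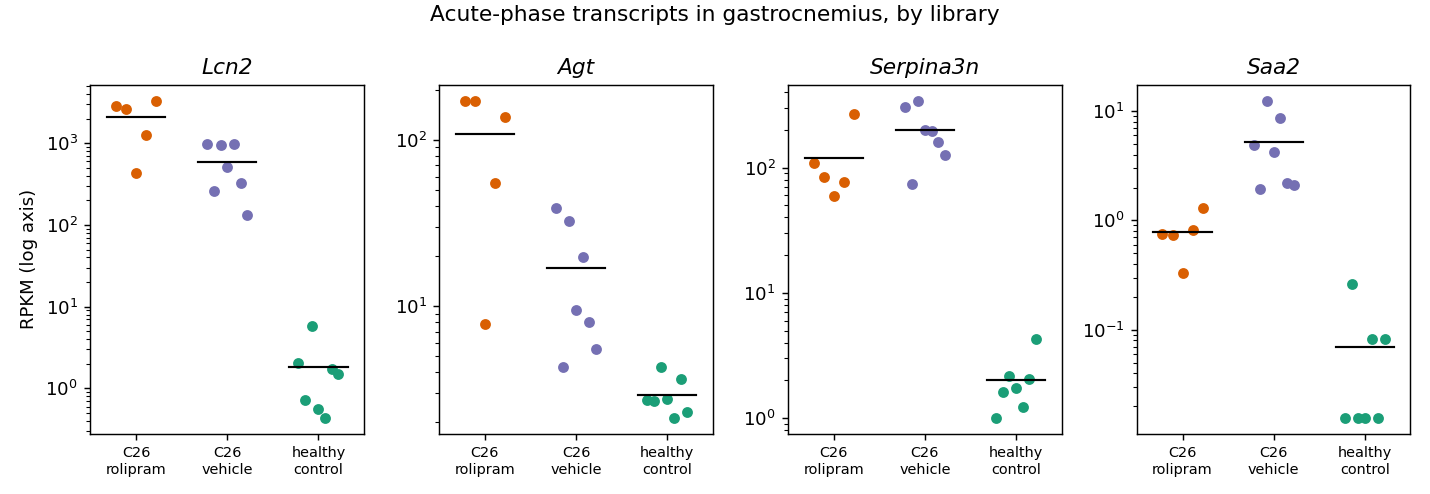
RPKM of the 4 acute-phase genes on log axes, 1 point per library, with the group mean as a bar, for C26 rolipram (n = 5), C26 vehicle (n = 7) and healthy control (n = 7) muscle. Lcn2 and Agt stand highest in C26 rolipram except for 1 library, whereas every Saa2 value in C26 rolipram (0.330 to 1.30 RPKM) lies below the C26 vehicle values (1.92 to 12.4 RPKM).

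On the log2(RPKM + 1) scale used for all differences below, Lcn2 was 9.42 above control in C26 rolipram and 7.59 above control in C26 vehicle. Serpina3n differed from control by 5.16 in C26 rolipram and 5.97 in C26 vehicle, Agt by 4.22 and 1.82, and Saa2 by 0.72 and 2.31 in the same groups. The 2 sets of differences share the control libraries. None of the 4 genes overlapped control in either tumour group, where 24.7% of the 11141 tested genes were higher without overlap in C26 rolipram and 26.9% in C26 vehicle. In a fit over all tested genes, 54.8% were called between C26 rolipram and control, 38.5% higher and 16.4% lower in C26 rolipram, and 67.0% between C26 vehicle and control, 43.3% higher and 23.8% lower in C26 vehicle. The counts were 4286 higher and 1824 lower for C26 rolipram, and 4822 higher and 2646 lower for C26 vehicle. With median-of-ratios scaling they were 2895 higher and 2964 lower for C26 rolipram, and 3745 higher and 3658 lower for C26 vehicle. The median over all tested genes was 0.15 in both contrasts and 0.0 in both with that scaling, under which the 4 genes kept their direction, from 0.68 for Saa2 to 9.28 for Lcn2 in C26 rolipram minus control.

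The order of the 4 genes by level also differed between groups. RPKM is per length, but the length used for each gene is not given, so levels of different genes compare only roughly. In C26 rolipram means ran Lcn2 (2098), Serpina3n (119), Agt (108) and Saa2 (0.787 RPKM), and Serpina3n and Agt lay within each other's spread. C26 vehicle muscle had Lcn2 (594), Serpina3n (200), Agt (17.0) and Saa2 (5.20 RPKM), where the ranges of Lcn2 and Serpina3n overlapped, and so did those of Agt and Saa2. In control muscle Agt (2.94), Serpina3n (2.01) and Lcn2 (1.83 RPKM) lay within each other's range, above Saa2 (0.0699 RPKM).

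Rolipram was set against vehicle in tumour-bearing mice to ask whether the drug altered the muscle response to the tumour. Between C26 rolipram and C26 vehicle 3 of the 4 genes differed, and not in 1 direction. Agt was higher with rolipram by 2.40 (SE 0.61, 95% interval 1.14 to 3.66) and Lcn2 by 1.82 (SE 0.54, interval 0.70 to 2.95). Saa2 was lower with rolipram, with a difference of -1.59 (SE 0.29, interval -2.19 to -0.98). Serpina3n did not pass, at -0.81 (SE 0.35, interval -1.54 to -0.07).

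The adjusted p from limma, over all 11141 genes, was 0.0117 for Agt, 0.0252 for Lcn2, 0.00157 for Saa2 and 0.12 for Serpina3n. Thus 3 of 4 passed the threshold of 0.05, where 17.1% of all tested genes did, 9.78% higher and 7.32% lower. This contrast shares the C26 vehicle libraries with the values on which the genes were known. The C26 rolipram values may also have entered that choice, which the sources used here do not settle. The p-values of this contrast take no account of the choice, so each may be too small. For the same reason 3 of 4 beside 17.1% is a description and not a test of the set. Two-sided exact permutation tests over the 792 assignments of the 12 tumour libraries gave p = 0.0253 for Agt, 0.0253 for Lcn2, 0.00505 for Saa2 and 0.107 for Serpina3n, where 0.00126 was the smallest p possible. Libraries of the tumour groups did not overlap for Saa2, which 1.8% of tested genes matched in the lower direction, and overlapped for the other 3 genes. Saa2 entered these tests only through the C26 vehicle libraries, where it was higher. In ratios of means, C26 rolipram over C26 vehicle was 6.36 for Agt, 3.53 for Lcn2, 0.596 for Serpina3n and 0.151 for Saa2.

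Lcn2 depended on single libraries. Its adjusted p in limma was 0.0741 without C26 rolipram library 1, 0.0751 without library 2, 0.0633 without library 5 and 0.0513 without C26 vehicle library 6. Agt and Saa2 passed whichever of the 19 libraries was left out, and without C26 rolipram library 3 the Agt difference was 3.16 (adjusted p = 0.000124). Serpina3n passed as lower without C26 rolipram library 5 (adjusted p = 0.0221) or C26 vehicle library 2 (0.0336), at -1.15 in the lowest of these fits.

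**Figure D2:**
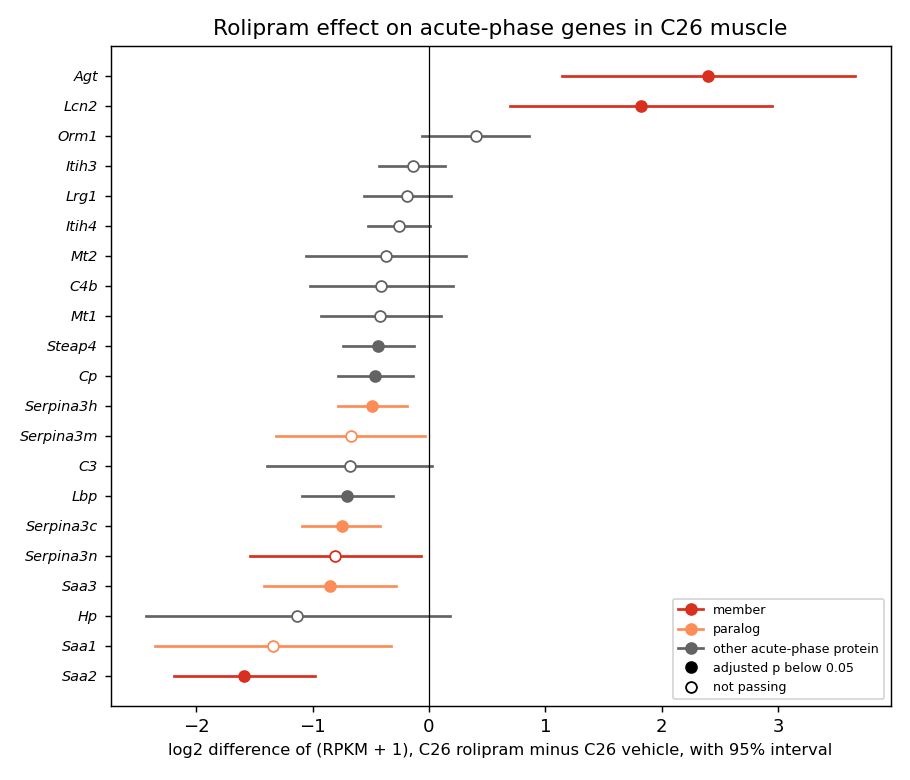
Difference C26 rolipram minus C26 vehicle in log2(RPKM + 1) with its 95% interval from limma, for the 4 genes, their tested paralogs and other acute-phase genes (5 C26 rolipram and 7 C26 vehicle libraries). Agt (2.40) and Lcn2 (1.82) are the filled points to the right of 0, and Saa2 (-1.59) stands at the other end of the axis.

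The neutrophil proteins S100a8 and S100a9, which form calprotectin, are given beside Lcn2 because neutrophils store lipocalin 2. S100a8 had 14.6, 8.95, 2.72, 3.49 and 79.5 RPKM in the C26 rolipram libraries, the same order of libraries as Lcn2. Serpina3n and S100a9 had this order too, so it is not particular to Lcn2 and S100a8. C26 vehicle libraries had 2.31 to 7.80 RPKM and control libraries 0.125 to 1.90 RPKM. S100a8 was at 1.12 in C26 rolipram minus C26 vehicle and did not pass in limma (adjusted p = 0.141). Without C26 rolipram library 3 it passed as higher (1.53, adjusted p = 0.0394), which no other library left out gave, and Lcn2 was then at 2.32. Without C26 rolipram library 5, which had 79.5 RPKM, the S100a8 difference was 0.42 (adjusted p = 0.436, limma), so its size rested largely on that library. S100a9 had 1.51 to 5.27 RPKM in C26 rolipram and 1.59 to 10.4 RPKM in C26 vehicle libraries, and Csf3r, the receptor for granulocyte colony-stimulating factor, stayed at or below 0.470 RPKM in C26 rolipram and 0.818 RPKM in C26 vehicle libraries. The part of neutrophils in the Lcn2 result was not tested. In the C26 vehicle libraries the correlation of Lcn2 with the summed neutrophil markers was r = -0.38 (exact permutation p = 0.422) with rho = -0.04, and r was 0.64 without 2 libraries, so its sign was not stable.

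The genes were also set against each other within each library, as differences of log2(RPKM + 1) with no test. Lcn2 minus Serpina3n was 4.03 ± 0.85 in C26 rolipram and 1.40 ± 0.70 in C26 vehicle (SD, n = 5 and 7), with ranges of 2.84 to 4.97 and 0.07 to 2.31 that did not overlap. Lcn2 minus Saa2 was 9.90 ± 1.01 in C26 rolipram and 6.49 ± 0.60 in C26 vehicle, again without overlap. Agt minus Serpina3n was -0.52 ± 1.5 in C26 rolipram and -3.72 ± 0.55 in C26 vehicle, without overlap. Even C26 rolipram library 3, lowest of its group for Lcn2, Agt, Serpina3n and Saa2, therefore lay beyond the C26 vehicle range in these 3 differences.

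The other 3 pairs overlapped between the tumour groups. Agt minus Lcn2 was -4.54 ± 0.66 in C26 rolipram and -5.11 ± 0.52 in C26 vehicle, and Serpina3n minus Saa2 was 5.87 ± 0.59 in C26 rolipram and 5.09 ± 0.53 in C26 vehicle. Agt minus Saa2 was 5.36 ± 1.63 in C26 rolipram and 1.38 ± 0.65 in C26 vehicle, and the overlap came from C26 rolipram library 3.

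**Figure D3:**
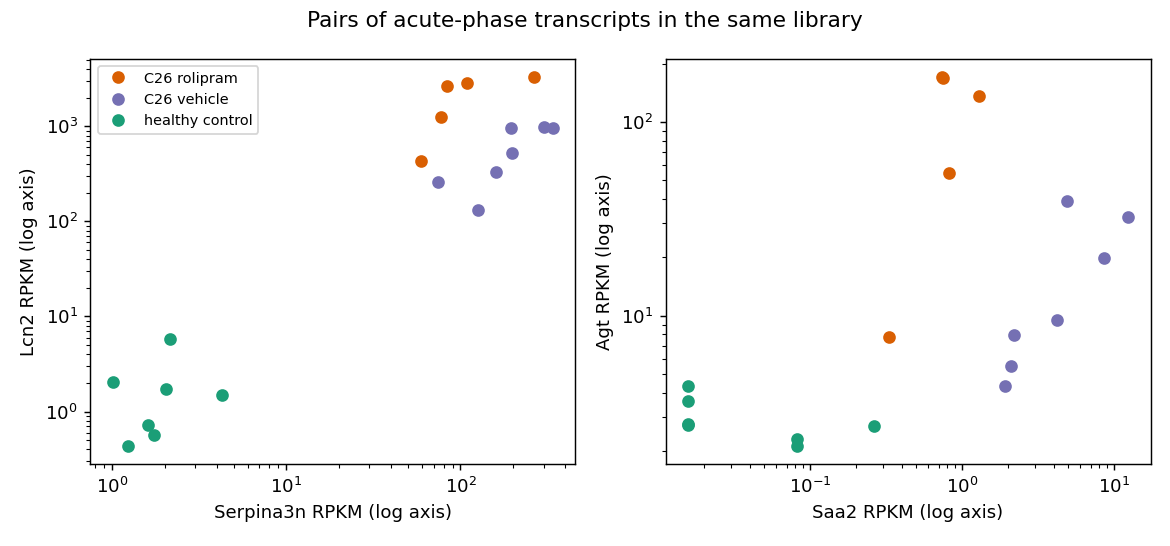
RPKM of Lcn2 against Serpina3n (left) and of Agt against Saa2 (right) in the same library, on log axes, 1 point per library, for C26 rolipram (n = 5), C26 vehicle (n = 7) and healthy control (n = 7). At a like Serpina3n level every C26 rolipram library holds more Lcn2 than the C26 vehicle libraries, while on the right C26 rolipram lies at lower Saa2.

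The 4 genes varied widely between libraries of a group. The SD of log2(RPKM + 1) for Agt was 1.83 in C26 rolipram, 1.15 in C26 vehicle and 0.27 in control libraries, and that of Lcn2 was 1.23, 1.13 and 0.77 in the same order. Medians over all tested genes were 0.20, 0.22 and 0.15. In C26 rolipram the SD of Agt was above that of 99.991% of tested genes. Serpina3n had SDs of 0.83, 0.75 and 0.45, and Saa2 of 0.28, 0.86 and 0.12, so Saa2 varied more between C26 vehicle than between C26 rolipram libraries on this scale, which compresses values under 1 RPKM.

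Within the 7 C26 vehicle libraries the correlation was positive for all 6 pairs of the genes, and 1 pair passed. Serpina3n and Agt gave r = 0.92 (exact permutation p = 0.00179, adjusted 0.0268 over 30 relations) and rho = 0.93 (exact p = 0.00675, adjusted 0.0615), and r was 0.93 without the 2 libraries farthest from the median of Serpina3n. Pearson's r of the other 5 pairs was 0.79 to 0.90 and their adjusted p 0.0813 to 0.0902 by exact permutation, with rho of 0.79 to 0.93 (adjusted 0.0615 to 0.111). Leaving out 2 libraries gave these 5 pairs r of 0.61 to 0.91. Of the other measures tried, Lcn2 with Trim63, the muscle ubiquitin ligase MuRF1, gave r = 0.93 (exact permutation p = 0.00119, adjusted 0.0268), rho = 0.86 (exact p = 0.0238, adjusted 0.0794) and r = 0.78 without 2 libraries. Socs3, the feedback inhibitor induced by STAT3, gave r of 0.08 to 0.28 with the 4 genes, and none passed. Without 2 libraries these became 0.79 for Lcn2, 0.55 for Serpina3n, 0.49 for Saa2 and -0.03 for Agt, so they rest on few libraries. The summed adipocyte markers gave r of -0.80 to -0.49, lowest for Saa2 (exact permutation p = 0.0383, adjusted 0.0902), and r of -0.74 to -0.31 without 2 libraries. The part of fat in these values was not tested.

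Over all 12 tumour libraries, with group means removed, r was 0.93 for Lcn2 and Agt, 0.64 for Saa2 and Agt, and 0.72 to 0.76 for the other 4 pairs, as a description. Of the tested genes, those among the most like each of the 4 by this measure were then listed. Serpina3n was nearest to Serpina3m (r = 0.99), a relative with which reads may be shared, then Krt80 (0.98), Il1r2 and Ehd3 (0.96). Il1r2 is the decoy receptor for interleukin 1. Lcn2 was nearest to Ciz1 (0.98), Gpi1, Fam50a, Klhl30 and Alkbh3 (0.97). For Agt these were Exosc8, Trabd, Tubb6 (0.96), Ppp3cc and Sctr (0.95), and for Saa2 Eif4b, Hnrnpu (0.97), Cops2 (0.96) and Slc7a8 (0.95). The points share their libraries, and library 3 of C26 rolipram lies far from its group mean for Agt.

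The paralogs of Saa2 and Serpina3n were all lower in mean with rolipram. Saa3, made by many cells outside the liver in mice, fell in C26 rolipram by 0.85 (SE 0.27, adjusted p = 0.0369, limma), with 1.65 ± 1.23 RPKM in C26 rolipram and 3.74 ± 2.22 RPKM in C26 vehicle. Saa1, which with Saa2 makes up the circulating acute-phase form, had 7.05, 9.55, 1.63, 3.74 and 16.5 RPKM in C26 rolipram and 5.71 to 68.6 RPKM in C26 vehicle, and its difference of -1.34 did not pass (adjusted p = 0.063). It was more abundant than Saa2, with 24.0 ± 22.6 RPKM in C26 vehicle against 0.198 ± 0.244 RPKM in control muscle. Serpina3c fell by 0.75 (adjusted p = 0.00424) and Serpina3h by 0.49 (adjusted p = 0.0236) in C26 rolipram, and Serpina3m, at 5.89 RPKM in C26 rolipram and 9.43 RPKM in C26 vehicle, did not pass (-0.67, adjusted p = 0.139). Against control, all 5 tested paralogs were higher in C26 vehicle, by 1.23 for Serpina3c to 3.94 for Saa1, where 43.3% of all tested genes were higher. In control libraries Saa1 reached at most 0.722, Saa3 0.0852, Serpina3h 0.522 and Serpina3m 0.183 RPKM. These passed the filter only through tumour libraries, where they are high, so their direction against control was largely set by the filter. Saa3 and Serpina3h reached 1 RPKM in all C26 vehicle libraries (lowest 1.64 and 1.37 RPKM). In C26 rolipram some libraries were below it (lowest 0.397 and 0.706 RPKM). These 2 genes needed the C26 vehicle libraries to reach the filter, so their lower calls with rolipram are not independent of it. Serpina3i and Serpina3k were below the filter. The call of Saa3 was lost in 5 of the 19 fits that left out 1 library and that of Serpina3h in 2.

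Other acute-phase genes rose with the tumour. Of 25 genes of this list 13 had a value. All 13 were tested and higher in C26 vehicle than in control (median 2.07, all genes 0.15), as were 43.3% of all tested genes. They were led by the metal-binding metallothioneins Mt2 (8.07) and Mt1 (7.38) and by Lbp (3.05), which binds bacterial lipopolysaccharide. Itih3 and Itih4 reached at most 0.149 and 0.170 RPKM in control libraries and passed the filter only through tumour libraries. In C26 rolipram minus C26 vehicle 3 of the 13 were lower and none higher (median -0.42, all genes -0.01), beside 7.32% and 9.78% of all tested genes. The 3 lower genes were Lbp at -0.70 (17.4 ± 3.58 RPKM in C26 rolipram and 29.9 ± 9.75 RPKM in C26 vehicle, adjusted p = 0.0154), the ferric reductase Steap4 at -0.44 (adjusted p = 0.0435) and the copper ferroxidase ceruloplasmin, Cp, at -0.46 (adjusted p = 0.0447), by limma. Cp lost its call in 11 and Steap4 in 10 of the 19 fits without 1 library, and without C26 rolipram library 3, the library low in Lcn2 and Agt, 1 gene of the list was lower.

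The regulators of these genes were mostly higher in C26 vehicle than in control. Of all tested genes 43.3% were higher and 23.8% lower in that contrast. Of 14 tested genes of IL-6, STAT3 and C/EBP signalling, 10 rose and 2 fell in C26 vehicle against control, among them Cebpd (3.69), Stat3 (2.14) and the oncostatin M receptor Osmr (1.70) upward and the leukaemia inhibitory factor receptor Lifr (-0.56) downward. With rolipram 4 of the 14 were lower than in C26 vehicle and none higher, beside 7.32% lower and 9.78% higher among all tested genes. Stat3 had 34.8 ± 4.23 RPKM in C26 rolipram and 52.4 ± 3.59 RPKM in C26 vehicle (-0.58, adjusted p = 0.000321, limma), without overlap. Il6ra, the interleukin 6 receptor, had 4.71 ± 1.18 RPKM in C26 rolipram and 12.6 ± 5.96 RPKM in C26 vehicle (-1.16, adjusted p = 0.00407), and Osmr was at -0.38 (adjusted p = 0.0323), a call lost in 4 of the 19 fits without 1 library. Socs3 was at -0.39 and did not pass (adjusted p = 0.505).

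In NF-kB signalling 10 of 13 tested genes rose and 1 fell in C26 vehicle against control, with Nfkb2 (1.36), Rela (1.36) and the tumour necrosis factor receptor Tnfrsf1a (1.33) upward and the inhibitor Tnfaip3 (-0.62) downward. In C26 rolipram 3 of the 13 were lower than in C26 vehicle, namely the interleukin 1 receptor Il1r1 (-0.58, adjusted p = 0.00449), Nfkbiz (-0.40, adjusted p = 0.0133) and Rela (-0.43, adjusted p = 0.0496), and Nfkb2 was higher (0.39, adjusted p = 0.0249). Rela lost its call in 15 of the 19 fits without 1 library, and Nfkb2 in 2. Glucocorticoid-response genes were higher for 10 of 12 in C26 vehicle against control, led by Fkbp5 (3.92), Cdkn1a (3.48) and Ddit4 (3.99). In C26 rolipram 1 of 12 was lower than in C26 vehicle, Klf15 (-0.93, adjusted p = 0.0454, limma), a call lost in 14 of the 19 fits. Among all tested genes 43.3% rose and 23.8% fell in C26 vehicle against control. With rolipram 7.32% were lower and 9.78% higher than in C26 vehicle. The 1 lower glucocorticoid gene of 12 and the 1 higher NF-kB gene of 13 were near these shares.

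**Figure D4:**
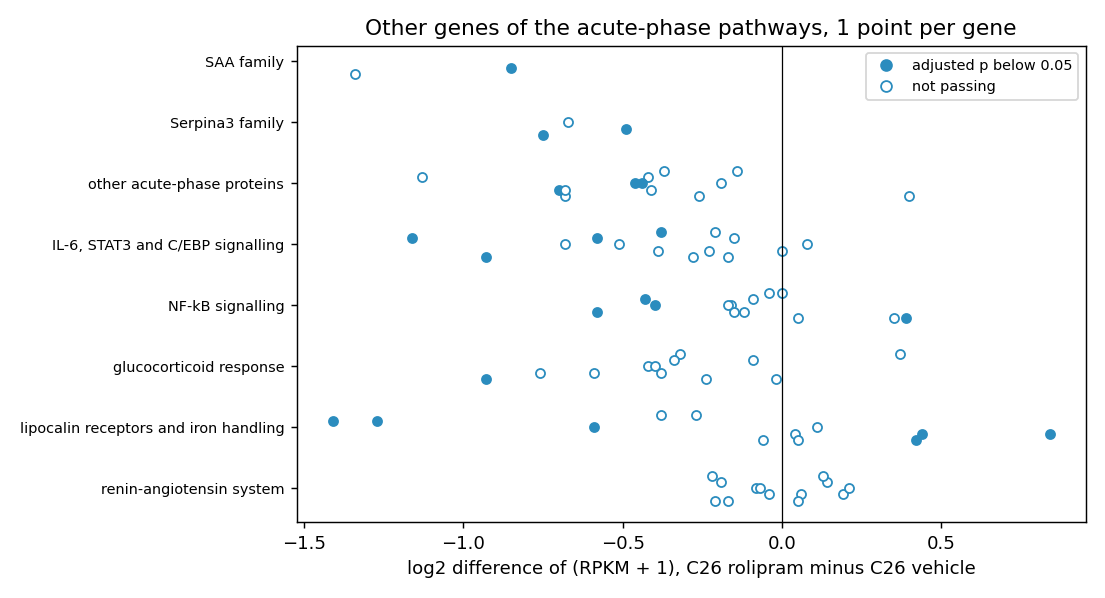
Difference C26 rolipram minus C26 vehicle in log2(RPKM + 1), 1 point per tested gene, for the families and pathways around the 4 genes, which are themselves left out; filled points have an adjusted p below 0.05 in limma. The renin-angiotensin genes lie between -0.22 and 0.21 with none filled, and the acute-phase and IL-6 lists have filled points to the left of 0.

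No tested partner of angiotensinogen passed in the rolipram contrast. Of 13 tested genes of the renin-angiotensin system, 0 were called in C26 rolipram minus C26 vehicle by limma (median -0.04, all genes -0.01), and 2 had an unadjusted p under 0.05. The share called among all tested genes was 17.1%. Without C26 rolipram library 3, 1 renin-angiotensin gene was called higher. The angiotensin-converting enzyme Ace was at -0.21 (16.5 ± 4.58 RPKM in C26 rolipram and 18.95 ± 2.84 RPKM in C26 vehicle, adjusted p = 0.302), and Agtr1a, the type 1 angiotensin receptor, at 0.06 (adjusted p = 0.74). In C26 vehicle against control 8 of the 13 were higher (5 with median-of-ratios scaling) and 1 lower, beside 43.3% and 23.8% of all tested genes. The protease Ctsd (1.72), Ace (0.95) and the prorenin receptor Atp6ap2 (0.66) went upward, and Enpep, which degrades angiotensin II, downward (-0.43).

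Around lipocalin 2, the iron genes changed in both directions. In C26 rolipram the transferrin receptor Tfrc rose by 0.84 (4.87 ± 1.91 RPKM in C26 rolipram and 2.19 ± 0.711 RPKM in C26 vehicle, adjusted p = 0.00665, limma), the iron importer Slc11a2 by 0.44 (adjusted p = 0.00225) and the iron-sensing aconitase Aco1 by 0.42 (adjusted p = 0.0222), which lost its call in 1 of the 19 fits without 1 library. Hmox1, the haem-degrading enzyme, had 8.02 ± 0.521 RPKM in C26 rolipram and 21.5 ± 6.25 RPKM in C26 vehicle, without overlap (-1.27, adjusted p = 5.87e-05). In all, 3 of 12 tested genes of the list were higher and 3 lower with rolipram, beside 9.78% and 7.32% of all tested genes. Against control, C26 vehicle had 4 of the 12 higher, Hmox1 among them (2.15), and 5 lower, beside 43.3% and 23.8% of all tested genes. Among the lower ones were Tfrc at -3.53 (2.19 ± 0.711 RPKM in C26 vehicle and 35.6 ± 6.23 RPKM in control), Steap3 at -0.81 and Slc11a2 at -0.28.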

How the data were processed

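RNA was extracted from snap-frozen gastrocnemius, enriched for polyA and made into libraries with a stranded kit, per the labels' protocols. The submitters' processing notes name STAR 2.5.3a, featureCounts 1.6.4 and the mm10 build. Which annotation, strand setting and RPKM tool were used, and how the listed genes were picked, is not given in the sources used here. Expression values are RPKM computed by the authors and deposited as 1 table of 13067 genes in 19 libraries, with no counts. Library sizes were estimated from the steps between low values of 40 genes, of which 100% came out as whole reads within 0.05 read. Read numbers of Saa2 are estimates from these sizes. RPKM shares 1 total per library, so a change in abundant transcripts moves all others.

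The 4 genes and all gene lists were chosen with earlier results of these data known. Values were analysed as log2(RPKM + 1), which compresses differences of genes near or under 1 RPKM. Genes with at least 1 RPKM in at least 5 libraries were tested (11141). limma 3.58.1 in R 4.3.3 fitted the 3 groups over all 19 libraries, with a trended and robust variance. Tests were two-sided, and a gene was called at a Benjamini-Hochberg adjusted p below 0.05, taken over the 11141 genes. No p is given for the 4 genes against control. Exact permutation tests used scipy 1.17.1 in Python 3.11.15.

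Lists covered the SAA and Serpina3 families, other acute-phase proteins, the renin-angiotensin system, iron handling, SAA receptors, other serpins, IL-6, NF-kB and glucocorticoid genes, and markers of 9 cell types. Named from each list were up to 3 called genes of smallest p in the commoner direction and 1 in the other, for C26 rolipram minus C26 vehicle and C26 vehicle minus control. All paralogs and the 5 genes nearest to each of the 4 were also named, except for a few genes that are not reported here, as were S100a8, S100a9, Csf3r, Trim63, Socs3, Ace and Agtr1a beside a result they bear on, the last group after their values were seen. Alternatives were a pseudocount of 0.1, no filter, median-of-ratios scaling, quantile normalisation, a fit of the compared groups only, a replicate block and leaving out each library; the exact tests and the within-library differences were added after the data were seen. No 2 libraries had the same values, with a highest correlation of 0.9939. Gene positions came from GENCODE M21 and promoters from RefSeq, both GRCm38, and all 4 genes and Saa1 matched by symbol.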

Additional observations from a re-analysis of the deposited data

Results flagged for a closer look

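Saa2 in control library 2 stood apart from the other 6 control libraries, with 0.263 RPKM, an estimated 3 reads, where the others held 0 or 1 read. This was 1 of 12 combinations of gene and group examined for a sample far from the rest, and chance picks out about 1 in 20. The value lies below the lowest Saa2 level of the C26 rolipram group, 0.330 RPKM.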

How the results depend on the processing

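Saa2 was lower in C26 rolipram than in C26 vehicle, and passed, under every alternative listed, with -1.73 to -1.36 when 1 library was left out. Apart from the fit with no filter, these fits kept the filter that Saa2 reached only through C26 vehicle, where it was high. They therefore do not address that selection. Agt was higher in all, with 2.08 to 3.16 when 1 library was left out (adjusted p = 0.000124 to 0.0447), but missed the threshold when only the compared groups were fitted (2.40, adjusted p = 0.057). Lcn2 was higher in all, with 1.52 to 2.32 without 1 library (adjusted p = 0.00347 to 0.0751), and missed the threshold with a pseudocount of 0.1 (1.83, adjusted p = 0.0553) and with only the compared groups (1.82, adjusted p = 0.0662). Serpina3n was at -1.15 to -0.61 without 1 library (adjusted p = 0.0221 to 0.259). The cause was not tested.

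Whether sample numbers shared by groups pair the samples is not stated. Deviations of same-numbered libraries correlated at -0.36 to 0.39 between C26 rolipram and C26 vehicle (median -0.03, n = 5). They correlated at -0.04 to 0.30 between C26 vehicle and control (median 0.15, n = 7) and at -0.10 to 0.03 between C26 rolipram and control (median 0.01, n = 5). So few values cannot decide on a pairing. With the replicate block Lcn2 was at 1.6 (adjusted p = 0.0634), and 1246 genes were called higher and 852 lower, against 1090 and 816.

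With only the compared groups 467 genes were called higher and 300 lower in C26 rolipram than in C26 vehicle. Leaving out 1 library gave 665 to 1448 higher and 435 to 1072 lower, with 665 and 523 without C26 rolipram library 1, 679 and 435 without library 2, and 521 lower without library 4. Against control, a pseudocount of 0.1 put Saa2 at 2.42 for C26 rolipram and at 4.77 for C26 vehicle. Genes called lower in C26 rolipram than in control numbered 1824, and 2964 with median-of-ratios scaling and 2823 with quantile normalisation. The correlation of Saa2 with neutrophil markers in C26 vehicle, 0.08, was -0.02 without a log.

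In C26 rolipram minus C26 vehicle, fits without 1 library called 0 to 2 SAA, 1 to 3 Serpina3, 1 to 3 other acute-phase, 2 to 4 IL-6 and 2 to 3 NF-kB genes lower. Without C26 rolipram library 3 these counts were 0, 1, 1, 3 and 2. Under the other alternatives they were 0 to 1, 1 to 3, 0 to 3, 2 to 5 and 2 to 3, in the same order of lists. Saa1 passed as lower without C26 rolipram library 5 (-1.66, adjusted p = 0.0286), C26 vehicle library 2 (-1.58, 0.0245) or C26 vehicle library 7 (-1.52, 0.0334). Depth limits Saa2 most, with 5 to 25 estimated reads per C26 rolipram library and 0 to 3 per control library, and intervals cover the spread between libraries only.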

Other observations

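Candidate partners of the secreted proteins were measured too. Of 4 tested SAA receptors 3 rose in C26 vehicle against control, beside 43.3% of all tested genes. They were the lipoprotein receptor Scarb1, by 1.09 (21.0 ± 3.53 RPKM in C26 vehicle and 9.33 ± 1.68 RPKM in control), the fatty acid transporter Cd36, by 1.16, and the lipopolysaccharide receptor Tlr4, by 0.79. Scarb2, a lysosomal relative of Scarb1, rose by 0.36 in C26 rolipram against C26 vehicle (38.8 ± 3.94 RPKM in C26 rolipram and 29.9 ± 1.97 RPKM in C26 vehicle, adjusted p = 0.007, limma). It was the 1 of these 4 receptors called in that contrast, beside 17.1% of all tested genes. Of 8 tested other serpins and target proteases, 3 rose and 3 fell in C26 vehicle against control, where 43.3% of all tested genes rose and 23.8% fell. Serping1, the inhibitor of complement C1, rose by 1.11 (66.3 ± 26.8 RPKM in C26 vehicle and 28.9 ± 6.30 RPKM in control), and Serpinf1 fell by 1.69. In this list 0 genes were called in C26 rolipram against C26 vehicle by limma, beside 17.1% of all tested genes, and 2 had an unadjusted p under 0.05.

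Markers of other cells were set against the same shares. In C26 vehicle against control, 8 of 9 tested macrophage markers rose, C1qb among them by 1.45. Fibroblast markers went in both directions, and of 8 tested 5 fell, 1 rose and 2 did not pass. Col1a1 fell, with 8.38 ± 5.71 RPKM in C26 vehicle and 48.6 ± 20.9 RPKM in control (-2.50). The fibroblast marker that rose was Pi16, by 1.02 (adjusted p = 0.00436, limma). Of 7 endothelial markers 3 rose and 1 fell, shares near those of all tested genes, and Plin1 was the 1 of 6 adipocyte markers that fell, by 0.81 (adjusted p = 0.0432), a call lost in 9 of the 19 fits without 1 library. Both tested satellite cell markers rose in C26 vehicle against control, and Sdc4 fell in C26 rolipram against C26 vehicle by 0.97 (adjusted p = 0.00346, limma), while Cdh15 rose by 0.44. Among 10 fibre markers 1 rose and 4 fell in C26 vehicle against control (2 fell and 5 rose with quantile normalisation, and 7 fell with median-of-ratios scaling), Mylpf by 1.82, and Des rose in C26 rolipram against C26 vehicle by 0.45 (adjusted p = 0.00712). The part of these cells in the levels of Lcn2, Agt, Serpina3n and Saa2 was not tested.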
